A study of Mus musculus with 2 samples.

Results

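Glycolysis and the response to low oxygen were followed here through 32 genes in mouse carotid arteries after wire injury. All rows of the 2 deposited count matrices whose symbol was on the list were used, and all 32 genes were present among the 27998 genes of each matrix. Of these genes, 15 encode enzymes of glycolysis from hexokinase to lactate dehydrogenase. The 17 others, called the other members below, are 2 transporters, 3 switches of glycolysis and pyruvate use, a hypoxia factor and its oxygen sensor, and 10 genes known as hypoxia targets.

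The study profiled single cells from remodelled carotid arteries of male C57BL/6J mice of 8 weeks of age, with no genetic change or drug named in the labels. Arteries were taken 14 days (2 weeks) or 28 days (4 weeks) after a guide wire had been passed through the vessel to strip its endothelium, and the external carotid was then tied, so every animal was injured and ligated. The design text gives 18 mice per time. Each time is 1 library, with nothing that ties a cell to a mouse, and no uninjured artery is analysed here. The labels do not settle the vessel: the source field names the carotid artery, the extraction text speaks of aortic grafts, and both left and right sides appear. The adventitia was dissected from the inner layers, and live nucleated cells were sorted after papain digestion.

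Glycolysis splits glucose into pyruvate in the cytosol, and lactate dehydrogenase turns pyruvate into lactate when pyruvate is not burned in mitochondria. In low oxygen the factor HIF-1, whose regulated subunit is encoded by Hif1a, escapes its prolyl hydroxylases (Egln genes) and raises glucose uptake, most glycolytic enzymes and genes such as Vegfa and Bnip3. In inflamed arteries, activated macrophages and neutrophils are known for high glycolysis, and dividing lymphocytes for raising it as they grow.

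The libraries held 5864 barcodes at 2 weeks and 8565 at 4 weeks, of which 5152 and 7422 were kept, with medians of 11755.5 and 8698.5 UMIs (unique molecules counted) per kept cell. The 2 libraries shared 8 barcodes. Clustering gave 27 clusters, of which 23 were named from fixed marker lists and grouped into 13 classes. Each class name means cells like that type by these markers, since the names were rebuilt here. In fibroblast-like, smooth muscle-like and endothelial-like cells 0 or 1 marker of their own list was at 0 UMIs. A sum of 0 is rare in classes of this depth, so this count does not bear on the names. In NK cell-like cells at 4 weeks, for example, only 1 of 10 neutrophil markers was at 0 UMIs. The tissue also held thymocyte-like, parathyroid-like and airway epithelial-like cells, which are not cells of an arterial wall. The cell mixture differed strongly between the libraries: fibroblast-like cells went from 1157 to 3215, macrophage-like cells from 1060 to 270, B cell-like cells from 39 to 1177, and neutrophil-like cells from 208 to 29. Levels below are CPM, the UMIs of a gene per 1000000 UMIs of its class, and are given where a library holds 20 or more cells of that class. Ratios are CPM at 4 weeks over CPM at 2 weeks on a log2 scale, given where both libraries hold 40 or more cells of a class. Bracketed ranges are exact 95% intervals that cover counting error only. With 1 library per time no test between times is possible, so a gene is called higher or lower only as a description, where its ratio passes 1.5-fold and the class holds at least 100 of its UMIs.

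The promoters of most members hold a short motif. The list was chosen as glycolysis and hypoxia response genes, so a larger share with a HIF motif is no independent support. The share of all genes given below was not matched for base composition. HIF binds DNA at a core of ACGTG or GCGTG. Either core, on either strand, was present in the 250 bases before the start site in 27 of 30 members with a RefSeq promoter (90%), against 41.5% of all 27025 genes in the same GRCm38.p6 table. By promoter the shares were 35 of 44 for the members (79.5%) and 38.6% of all 32851. Among the enzymes 13 of 15 genes held a core, and among the other members 14 of 15. A match is a description of letters and not evidence of binding. The promoters of 4 genes are shown for genes on which the results below turn: 2 enzymes, the factor itself and its oxygen sensor. Each is written 5′ to 3′ in the gene's own direction, with capitals marking the core on either strand (CACGT and CACGC are the cores read from the opposite strand, and CACGTG holds a core on both strands). None of the 4 windows overlaps an exon of GENCODE M21: the Egln3 window lies upstream of the gene, and the other windows lie within the gene's span, before an internal start site.
Ldha, chr7:46845554-46845803, plus strand, 5 cores: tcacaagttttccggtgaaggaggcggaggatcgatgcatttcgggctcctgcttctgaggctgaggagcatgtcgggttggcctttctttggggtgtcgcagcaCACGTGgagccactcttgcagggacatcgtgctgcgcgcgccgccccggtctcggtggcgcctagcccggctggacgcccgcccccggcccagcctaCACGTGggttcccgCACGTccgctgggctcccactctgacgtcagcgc
Gapdh, chr6:125165774-125166023, minus strand, 2 cores: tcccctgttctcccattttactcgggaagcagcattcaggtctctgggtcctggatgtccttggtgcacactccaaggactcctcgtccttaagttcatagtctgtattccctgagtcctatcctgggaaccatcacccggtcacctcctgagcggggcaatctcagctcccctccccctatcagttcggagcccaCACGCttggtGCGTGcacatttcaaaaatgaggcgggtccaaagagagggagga
Hif1a, chr12:73907617-73907866, plus strand, 3 cores: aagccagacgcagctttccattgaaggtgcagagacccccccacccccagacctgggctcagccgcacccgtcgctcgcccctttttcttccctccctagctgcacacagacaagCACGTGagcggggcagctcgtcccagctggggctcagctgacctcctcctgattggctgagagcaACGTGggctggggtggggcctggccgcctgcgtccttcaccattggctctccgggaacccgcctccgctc
Egln3, chr12:54203875-54204124, minus strand, 1 core: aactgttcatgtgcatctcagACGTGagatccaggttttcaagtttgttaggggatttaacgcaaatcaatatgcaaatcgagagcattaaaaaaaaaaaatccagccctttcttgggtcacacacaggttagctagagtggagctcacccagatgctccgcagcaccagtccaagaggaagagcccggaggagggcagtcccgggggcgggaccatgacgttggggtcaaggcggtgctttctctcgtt
The Ldha window, at a start site of the gene for the muscle-type lactate dehydrogenase subunit, carried the most cores of the 4. The Egln3 promoter carried 1. In the same annotation Ldha spans chr7:46841475-46855627, Gapdh chr6:125161715-125166467, Hif1a chr12:73901375-73947530 and Egln3 chr12:54178981-54203860.

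**Figure D1:**
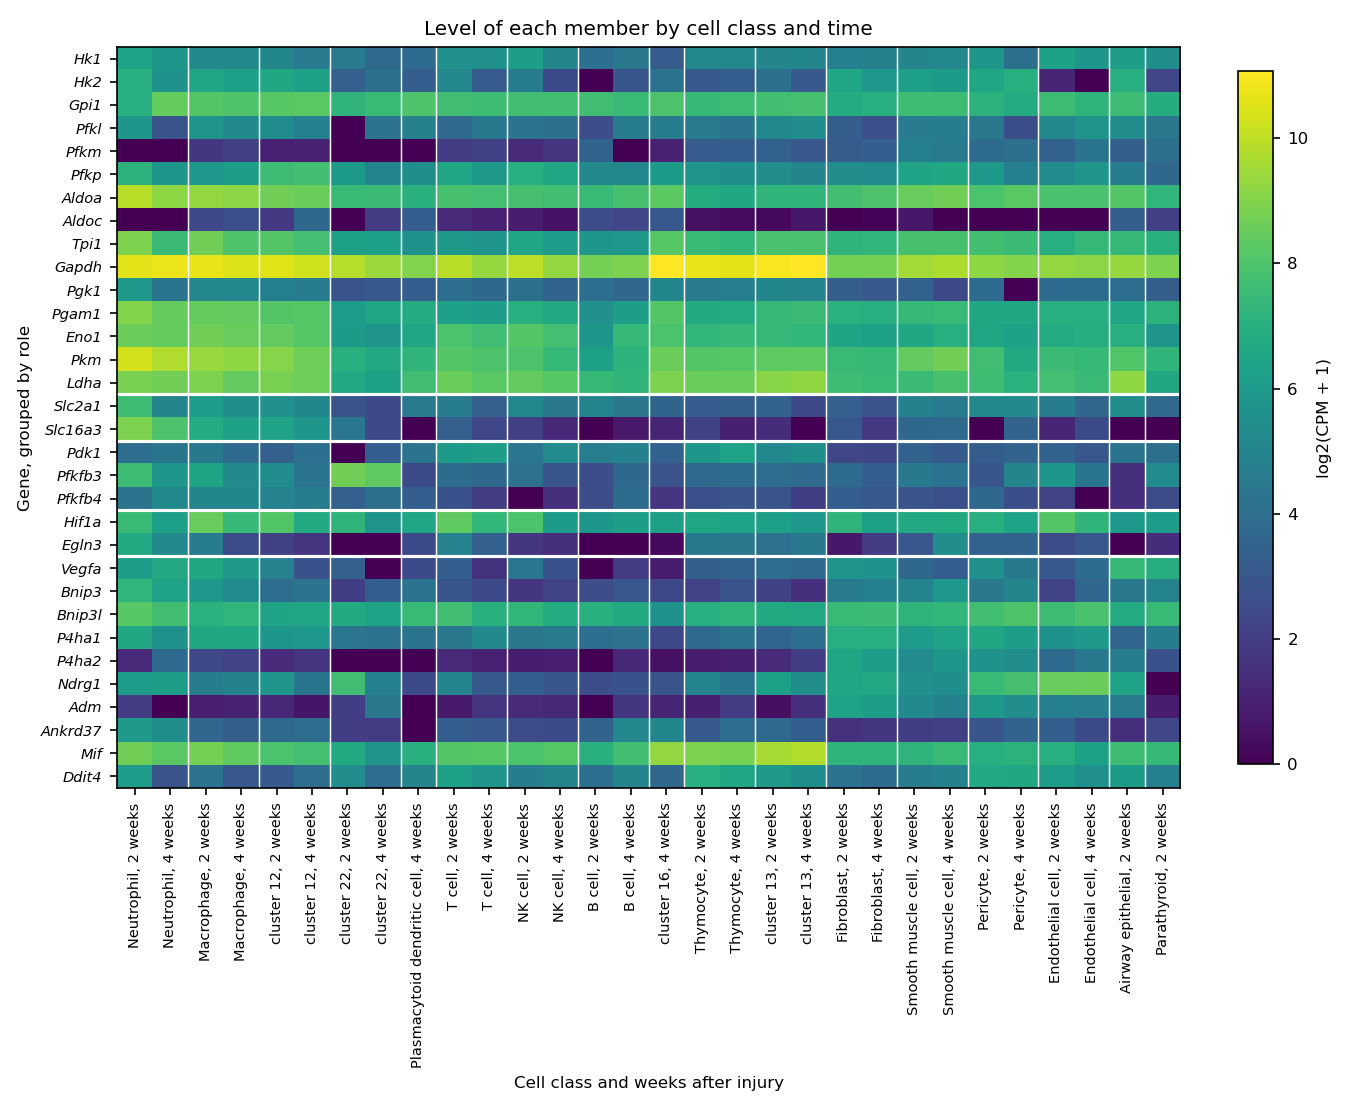
Level of each of the 32 genes as log2(CPM + 1), with rows grouped by role (enzymes, transporters, switches, factor and sensor, hypoxia response) and columns giving each cell class at 2 and 4 weeks after injury. Most enzyme rows are bright in the neutrophil and macrophage columns, Gapdh is brightest in the cycling clusters 13 and 16, and Ndrg1, Adm and P4ha2 are brightest in endothelial or fibroblast columns.

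At 2 weeks glycolytic enzymes were highest in neutrophil-like and macrophage-like cells and low in fibroblast-like and B cell-like cells; at 4 weeks cluster 16, a cycling group described further on, stood between the first 2 at 4538 CPM (4479 to 4598). Their summed level at 2 weeks was 6173 CPM (5986 to 6364) in neutrophil-like cells, 5148 CPM (5112 to 5185) in macrophage-like cells, 1681 CPM (1666 to 1697) in fibroblast-like cells and 1307 CPM (1151 to 1480) in B cell-like cells. At 4 weeks the same classes held 5008, 4386, 1666 and 1584 CPM. The order of these classes was therefore the same at both times, except that B cell-like cells and fibroblast-like cells came close together. At 4 weeks neutrophil-like cells numbered 29, and their neutrophil markers summed to 245795 CPM against 56339 CPM at 2 weeks, so the cells compared under that name differ. Pericyte-like cells (53 and 29) differ likewise: their pericyte markers summed to 3541 and 665 CPM, smooth muscle markers to 2660 and 95.01 CPM, and fibroblast markers to 29945 and 61162 CPM. Fibroblast-like cells held 66817 and 56864 CPM of fibroblast markers. The pericyte-like name is therefore uncertain at 4 weeks, wherever a level under it is given below. The 17 other members were also highest in neutrophil-like cells, at 2412 CPM (2296 to 2533) at 2 weeks and 1396 CPM (1218 to 1594) at 4 weeks. With the clusters of each class pooled, neutrophil-like cells were the top class for 14 of the 32 genes at 2 weeks and for 10 at 4 weeks.

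Several enzymes and transporters stood highest in neutrophil-like cells, some at 2 weeks only. Pkm, which makes pyruvate, stood at 1277 CPM in neutrophil-like cells at 2 weeks and 876 CPM at 4 weeks, against 654 and 580 CPM in macrophage-like cells, the next class at both times. Aldoa, the aldolase of most tissues, was at 954 CPM in neutrophil-like and 620 CPM in macrophage-like cells at 2 weeks, whereas the intervals of these 2 classes overlapped later (578 and 567 CPM). Slc16a3, the lactate exporter MCT4, was at 473 and 254 CPM in neutrophil-like cells and at 112 and 80.8 CPM in macrophage-like cells. Slc2a1, the glucose importer GLUT1, was at 199.5 CPM in neutrophil-like cells at 2 weeks, against 67.6 CPM in macrophage-like cells, but at 4 weeks macrophage-like cells were highest (44.6 CPM) and neutrophil-like cells stood at 31.7 CPM, from 5 UMIs. Bnip3, which marks mitochondria for removal, was at 158 CPM there against 59.4 CPM in macrophage-like cells, with a single cell giving 21.9% of its UMIs.

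Ndrg1, Adm, P4ha1 and P4ha2 were highest outside the myeloid cells. Ndrg1, a stress-response gene induced by HIF, was at 360 and 377 CPM in endothelial-like cells at 2 and 4 weeks, and 206 CPM (cluster 22) and 222 CPM (pericyte-like cells) were the next levels. Adm, which encodes the vasodilator adrenomedullin, was at 82.9 and 69.7 CPM in fibroblast-like cells and at 63.6 and 42.2 CPM in pericyte-like cells, a pair with overlapping intervals. P4ha1 and P4ha2 encode the catalytic subunits that hydroxylate proline in collagen. P4ha1 was at 127 and 122 CPM and P4ha2 at 90.9 and 71.1 CPM in fibroblast-like cells, their highest class at both times. P4ha2 was at 4.25 and 3.69 CPM in macrophage-like cells. Vegfa, the vascular growth factor, was at 172 CPM in 25 airway epithelial-like cells and 119 CPM in 54 parathyroid-like cells at 2 weeks, both outside the arterial wall, and at 95.9 CPM in macrophage-like cells. At 4 weeks it was highest in neutrophil-like cells (102 CPM, with 56.2% of the UMIs from 1 cell), followed by macrophage-like cells (63.1 CPM). Pfkfb3, whose product drives phosphofructokinase, was highest in neither macrophage-like nor neutrophil-like cells but in cluster 22, a group of 24 and 64 cells led by Ccl22 and Fscn1, at 411 and 317 CPM.

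Pdk1, which inhibits pyruvate dehydrogenase, was highest in T cell-like and thymocyte-like cells at both times. It was at 65.4 and 70.2 CPM in T cell-like cells and 57.1 and 82.1 CPM in thymocyte-like cells, against 4.17 and 4.00 CPM in fibroblast-like cells. Ankrd37, a hypoxia-induced gene, was at 61.5 CPM in neutrophil-like cells at 2 weeks, with 13.1 CPM in the next class. Mif, a cytokine that HIF can induce, was highest in cluster 13, an unnamed cycling group led by Ptcra, at 800.5 and 895 CPM. Ddit4, which damps mTOR, was at 121 and 90.6 CPM in thymocyte-like cells and at 17.7 and 7.01 CPM in macrophage-like cells.

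For the remaining enzymes the top class often did not stand apart from the next. Gpi1, which isomerises glucose phosphate, was highest in cluster 12 at 2 weeks (297 CPM) and in neutrophil-like cells at 4 weeks (355 CPM), in both cases with an interval that overlapped that of the next class. Pfkp was at 189.8 and 208 CPM in cluster 12 and apart from the next class at both times. Pfkm, the muscle-type phosphofructokinase, was highest in smooth muscle-like cells, at 26.2 and 23.04 CPM, overlapping the next class. Tpi1, Pgk1 and Pgam1, which carry triose phosphates onward, were highest in neutrophil-like cells at 2 weeks, at 491, 63.0 and 524 CPM, each apart from the 413, 34.0 and 352 CPM of macrophage-like cells. Eno1 was highest in macrophage-like cells at both times, at 412 and 359 CPM, overlapping neutrophil-like cells. Aldoc, the brain-type aldolase, was low everywhere, with a highest level of 9.23 CPM at 2 weeks and 12.3 CPM at 4 weeks. Among the other members, Bnip3l was at 291 CPM in neutrophil-like cells at 2 weeks and 259 CPM in pericyte-like cells at 4 weeks, and Pfkfb4, a relative of Pfkfb3, was at 33.3 and 33.2 CPM in macrophage-like cells.

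Isozymes of the same step were divided by cell class. The share of 1 isozyme among the UMIs of its family compares classes and does not say which isozyme protein is more abundant. Hk1 gave 80.9% (77.4 to 84.1) of hexokinase UMIs in thymocyte-like cells at 2 weeks and 22.3% (20.8 to 23.9) in fibroblast-like cells, where Hk2, the inducible form, gave most of the rest. Hk3 gave 44.6% (38.4 to 51.0) in neutrophil-like cells and 16.8% (15.3 to 18.4) in macrophage-like cells at 2 weeks. In neutrophil-like cells a single cell gave 43.4% of the Hk2 UMIs. Slc16a3 gave 93.6% and 95.6% of lactate transporter UMIs in macrophage-like cells at 2 and 4 weeks, and 4.57% and 1.63% in thymocyte-like cells, where Slc16a1 (MCT1) gave the rest. Ldhb, the heart-type lactate dehydrogenase subunit, gave 41.6% and 48.1% of its family in thymocyte-like cells, 36.0% and 37.8% in smooth muscle-like cells, and 1.56% and 3.46% in macrophage-like cells. In T cell-like cells the Ldhb share was 24.8% (21.6 to 28.2) at 2 weeks and 8.71% (7.58 to 9.96) at 4 weeks. The make-up of this class differed between times: its cluster 20 held 126 and 57 cells and its cluster 6 held 33 and 605. Thymocyte markers in the class summed to 2473 and 1131 CPM. The part of this make-up in the Ldhb share was not tested.

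The oxygen-sensing genes were divided in the same way. Hif1a gave 99.4% and 99.6% of HIF alpha UMIs in macrophage-like cells, 52.5% and 61.8% in smooth muscle-like cells, and 40.8% (36.6 to 45.0) and 28.6% (22.8 to 35.0) in endothelial-like cells. Most of the remainder was Epas1, which encodes HIF-2 alpha, and it reached 96.9% in airway epithelial-like cells at 2 weeks. Egln3, a hydroxylase that is itself induced by HIF, gave 61.3% (52.0 to 70.1) of HIF prolyl hydroxylase UMIs in neutrophil-like cells at 2 weeks. It gave 16.6% (15.0 to 18.2) in macrophage-like cells at 2 weeks and 4.32% (2.32 to 7.27) at 4 weeks.

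**Figure D2:**
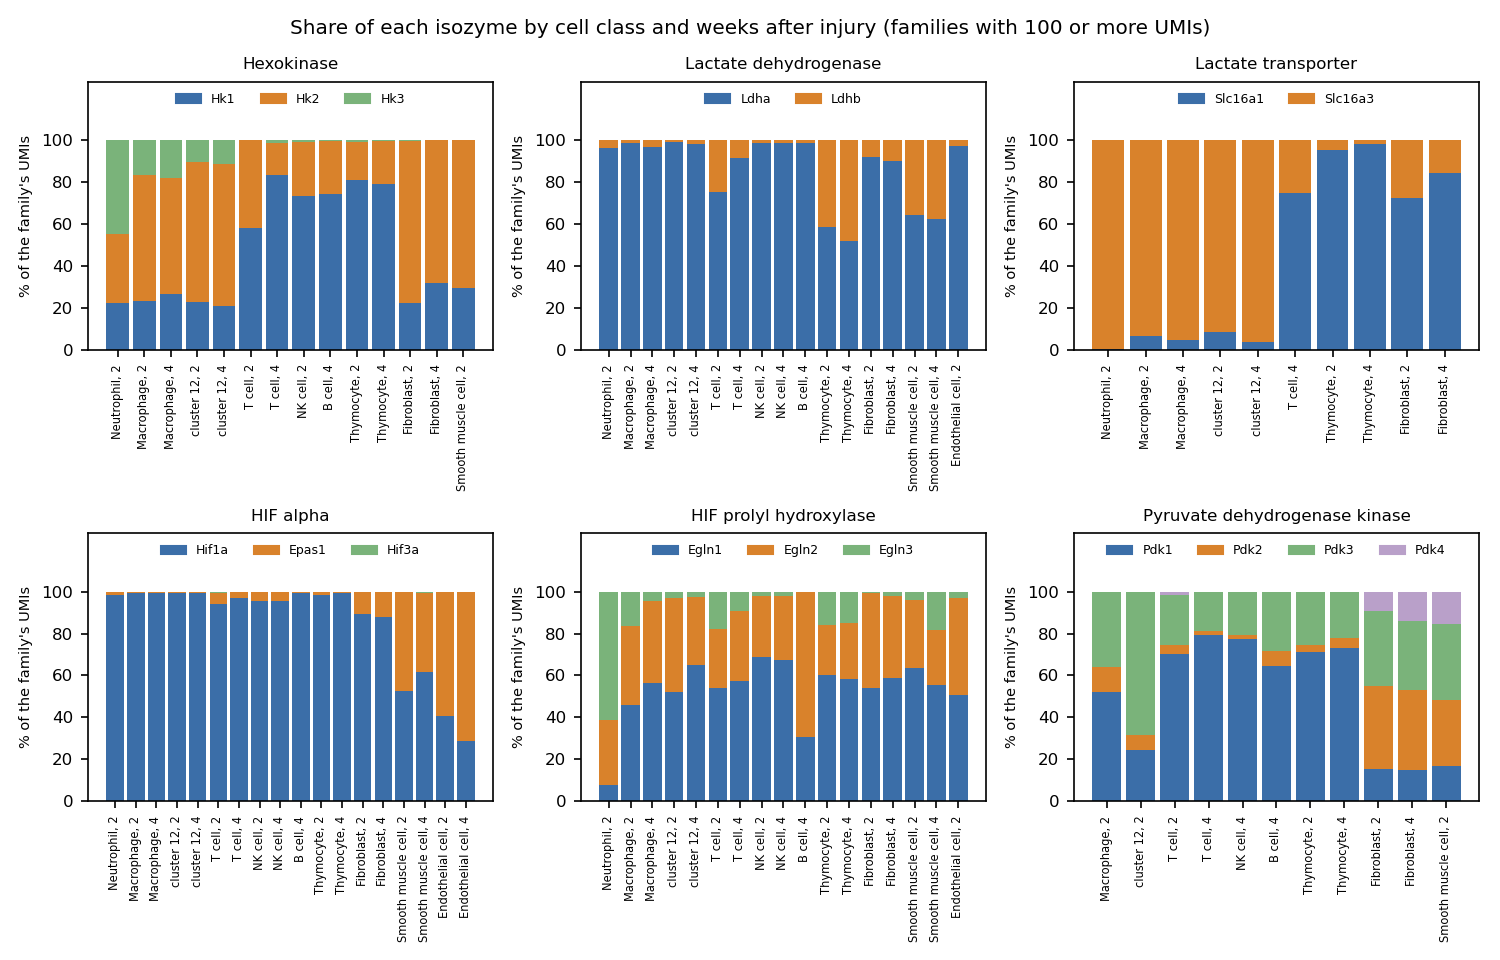
Share of each isozyme among the UMIs of its family (y axis, percent), for 6 families in classes with at least 100 UMIs of the family; each bar is 1 class at 2 or 4 weeks. Hexokinase bars are mostly Hk1 in lymphoid classes and mostly Hk2 in fibroblast-like cells, and the lactate transporter turns from Slc16a3 in myeloid classes to Slc16a1 in thymocyte-like cells.

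Over all kept cells the summed members were lower at 4 weeks. Over the clusters large enough in both libraries, most of the enzymes' difference went with the cluster shares. The summed enzymes went from 3069 CPM (3056 to 3082) at 2 weeks to 2217 CPM (2206 to 2228) at 4 weeks, and the other members from 1135 to 868 CPM. Of the 32 genes, 4 enzymes and 7 other members were past 1.5-fold lower and 0 were higher, where 16.8% of all genes with at least 100 UMIs were lower and 7.55% higher. Over the 23 clusters with 20 or more cells in each library the enzymes went from 3104 to 2052 CPM, a log2 ratio of -0.60. This leaves out cluster 16 among others, which gave 6.70% of UMIs and 13.7% of enzyme UMIs at 4 weeks. The ratio that is split here is therefore not that of all kept cells. With the 4 week levels of each cluster set at the 2 week cluster shares the ratio was -0.10, and with only the shares changed it was -0.55. For the other members the observed ratio was -0.40, and the same 2 figures were -0.23 and -0.26. Macrophage-like cells gave 20.4% of all UMIs and 34.2% of the enzyme UMIs at 2 weeks, and 3.72% and 7.36% at 4 weeks. A comparison of whole libraries therefore mixes a change of cells with a change within cells.

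**Figure D3:**
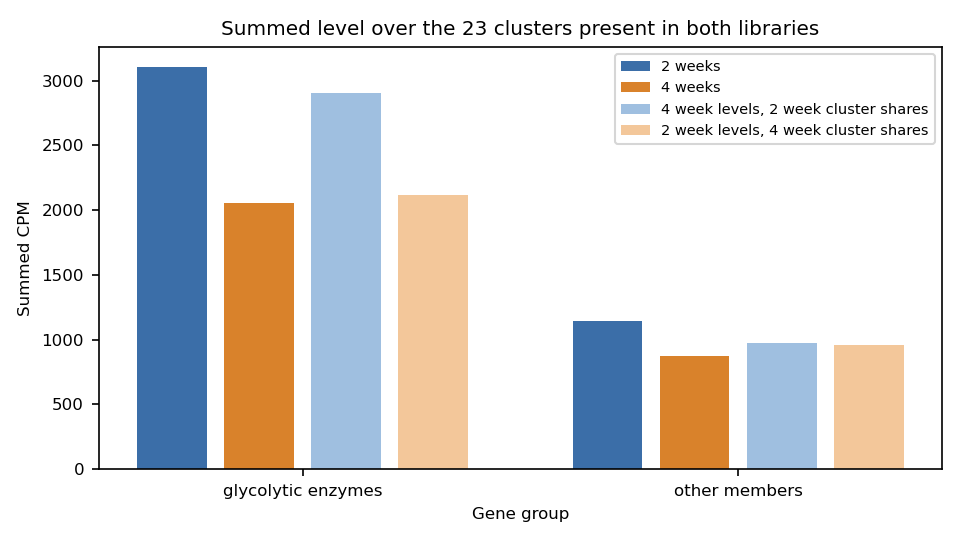
Summed CPM of the 15 glycolytic enzymes and of the 17 other members over the 23 clusters present in both libraries, as observed at 2 and 4 weeks and with either the levels or the cluster shares of the other time. For the enzymes, the bar with 4 week levels at 2 week shares (2906 CPM) stands near the 2 week bar (3104 CPM).

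Macrophage-like cells held the clearest difference between times, and it was larger in the other members than in the enzymes. Of 13 enzymes with at least 100 UMIs, 1 was lower at 4 weeks (Tpi1, the triose isomerase, 413 and 263 CPM, log2 ratio -0.65) and 0 were higher. Of 15 other members, 7 were lower and 0 higher. Among all 8693 genes of the class, 7.1% were lower and 5.12% higher. The median log2 ratio was -0.17 for the enzymes, -0.52 for the other members and 0.01 for all genes. Immediate early genes, which respond to tissue handling, moved the same way, from 16566 to 9588 CPM with 10 of 12 lower, and their part in the result was not tested. Furthest down were Egln3 (24.99 and 4.80 CPM, ratio -2.38, -3.30 to -1.59), Ddit4 (17.7 and 7.01 CPM, -1.34), Pfkfb3 (87.8 and 38.0 CPM, -1.21) and Hif1a (365 and 171 CPM, -1.10). Slc2a1, Vegfa and Pdk1 were also lower, with ratios between -0.62 and -0.60. The class ratio depends on which clusters carry the name: without removal of doublets, 80 of 326 and 52 of 126 cells of cluster 8 (described next) carried it and the 2 medians were 0.17 and 0.10, and when the 2 libraries were clustered apart 318 of 326 and 1 of 126 carried it and the medians were -1.496 and -1.91.

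The class was made of 2 clusters that differed in level by far more than the times did. Cluster 8 (326 and 126 cells), led by Arg1, Mmp12, Saa3 and Trem2, had 10106 CPM (10021 to 10191) of summed enzymes at 2 weeks and 6573 CPM (6439 to 6710) at 4 weeks. Cluster 4 (734 and 144 cells), led by Folr2 and Cd163, genes of resident macrophages, had 2252 CPM (2221 to 2283) and 2124 CPM (2046 to 2204). Cluster 8 was therefore above the neutrophil-like cells at both times, and it gave 24.8% of all enzyme UMIs of the 2 week library from 7.52% of its UMIs. Trem2 was not particular to cluster 8, at 337 and 556 CPM there and 279 and 284 CPM in cluster 4. Per cell, enzymes made up a median of 0.854% of UMIs in cluster 8 at 2 weeks and 0.477% at 4 weeks, against 0.185% and 0.176% in cluster 4. In cluster 8, 280 of 326 cells (85.9%) at 2 weeks and 87 of 126 (69.0%) at 4 weeks exceeded 0.34% of UMIs. This cut is the 90th percentile of cluster 4 at 2 weeks. The cells of each time come from 1 library and are not replicates, so these shares are given without an interval. The clusters were found with these genes among the input, so the contrast between them is a description.

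Within cluster 8, enzymes and other members were both lower at 4 weeks. The medians were -0.53 for 13 enzymes and -0.87 for 15 other members, against 0.05 for all 6240 genes tested in the cluster. Of these, 5 enzymes and 11 other members were lower and 0 were higher, where 8.43% of all genes were lower and 6.88% higher. Ldha, which makes lactate, was at 913 CPM at 2 weeks and 485 CPM at 4 weeks, a ratio of -0.91 (-1.03 to -0.80). Tpi1 was at 812 and 369 CPM (-1.14), Pfkl, the liver-type phosphofructokinase, at 105 and 53.0 CPM (-0.98), Gapdh at 3304 and 2137 CPM (-0.63) and Eno1, an enolase, at 846 and 551 CPM (-0.62). The remaining 8 enzymes stood between -0.55 and 0.10, Pkm among them at 1326 and 907 CPM. The promoters of Ldha and Gapdh are among those printed above.

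Among the other members of cluster 8, Egln3, Ddit4, Pfkfb3 and Hif1a were furthest down. Egln3 was at 64.8 and 9.43 CPM (-2.78, -3.70 to -1.99), Ddit4 at 40.1 and 11.6 CPM (-1.79), Pfkfb3 at 99.9 and 30.5 CPM (-1.71) and Hif1a at 637 and 245 CPM (-1.38, -1.55 to -1.22). Both transporters were lower, Slc2a1 at 159 and 76.9 CPM (-1.05) and Slc16a3 at 260 and 147 CPM (-0.82). Bnip3 (-1.03), Vegfa (-0.89), Mif (-0.87), Pdk1 (-0.81) and Ankrd37 (-0.70) completed the 11. Those that did not pass 1.5-fold were Bnip3l, the sister gene of Bnip3, at 152 and 191 CPM, P4ha1 at 121 and 126 CPM, Ndrg1 at 52.7 and 49.3 CPM and Pfkfb4 at 25.1 and 22.5 CPM. Pfkm, Aldoc, P4ha2 and Adm had fewer than 100 UMIs there.

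Other genes of this cluster differed between times too. Its neutrophil markers summed to 480 CPM at 2 weeks and 140 CPM at 4 weeks, with 1 of 10 and 0 of 10 markers at 0, against 56339 CPM in neutrophil-like cells. Saa3, an acute-phase gene, was at 16173 and 853 CPM, Arg1 at 1650 and 313 CPM and Il1b at 2656 and 1049 CPM, while Mmp12 was at 289 and 1075 CPM and Trem2 at 337 and 556 CPM. Immediate early genes were at 8025 and 6354 CPM, and the median depth was 15844 and 10214 UMIs per cell. The part of these genes and of depth in the lower levels of the members was not tested. With the members left out of clustering, the cluster that held most of these cells gave medians of -0.51 and -0.80, against 0.04 for all genes. That cluster was larger, with 570 and 217 cells against 326 and 126, so it also held many cells from outside cluster 8.

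Cluster 4 differed less, and almost only in the other members. Of 12 enzymes tested 0 passed 1.5-fold, with a median of -0.10, while 5 of 11 other members were lower, with a median of -0.36. Of all genes in the cluster 9.48% were lower and 4.56% higher. Hif1a was at 207 and 94.5 CPM (-1.13, -1.40 to -0.87), Pfkfb3 at 80.8 and 45.8 CPM (-0.82) and Slc16a3 at 25.2 and 12.004 CPM (-1.07). Vegfa was at 21.4 and 3.75 CPM (-2.51, -4.15 to -1.26), from 5 UMIs at 4 weeks. Pdk1, the fifth, stood at 13.9 and 8.25 CPM with an interval that includes 0 (-1.79 to 0.14). Immediate early genes in cluster 4 were at 21556 and 12931 CPM.

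**Figure D4:**
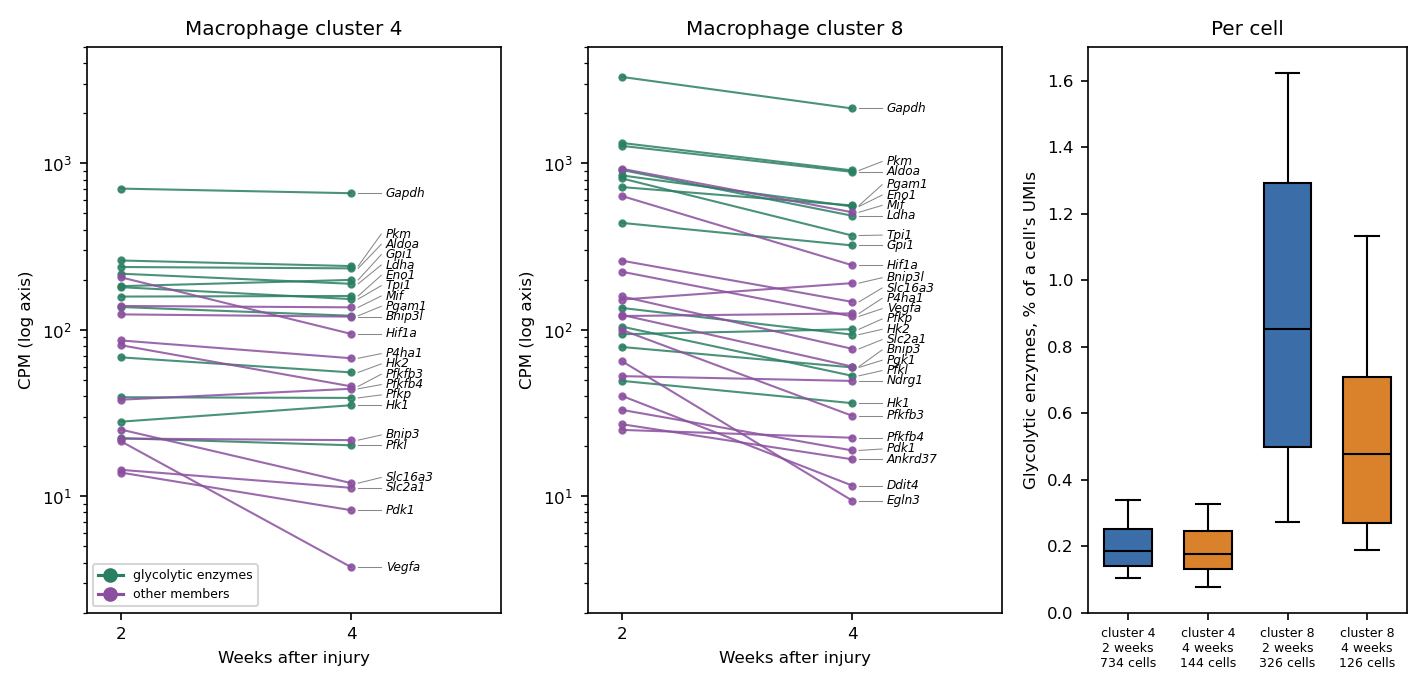
Left and middle, CPM (log axis) of each gene with at least 100 UMIs in macrophage-like clusters 4 and 8 at 2 and 4 weeks; right, the enzymes' share of each cell's UMIs (box, middle 50%; line, median; whiskers, 10th to 90th percentile). Lines in cluster 8 slope down for both gene groups, while the enzyme lines of cluster 4 are nearly flat.

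Cluster 12, an unnamed group with macrophage and dendritic cell genes (204 and 139 cells, led by Retnla, Cd209a and Xcr1), had 2 of its 4 lower members, Hif1a and Pfkfb3, in common with the macrophage-like class. Of 13 enzymes 1 was lower, and of 9 other members 3, with 0 higher, where 11.2% of all genes were lower and 3.59% higher. The medians were -0.27 and -0.54, and -0.04 for all genes. Ndrg1 was at 53.0 and 18.7 CPM (-1.504, -2.08 to -0.97), Hif1a at 268 and 108 CPM (-1.31) and Pfkfb3 at 41.3 and 18.2 CPM (-1.18). Pfkl was at 40.9 and 26.7 CPM (-0.62). Gapdh was at 1473 and 1223 CPM (-0.27, -0.34 to -0.20), which did not pass 1.5-fold. Immediate early genes were at 11493 and 6337 CPM with 9 of 12 lower, and their part was not tested.

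**Figure D5:**
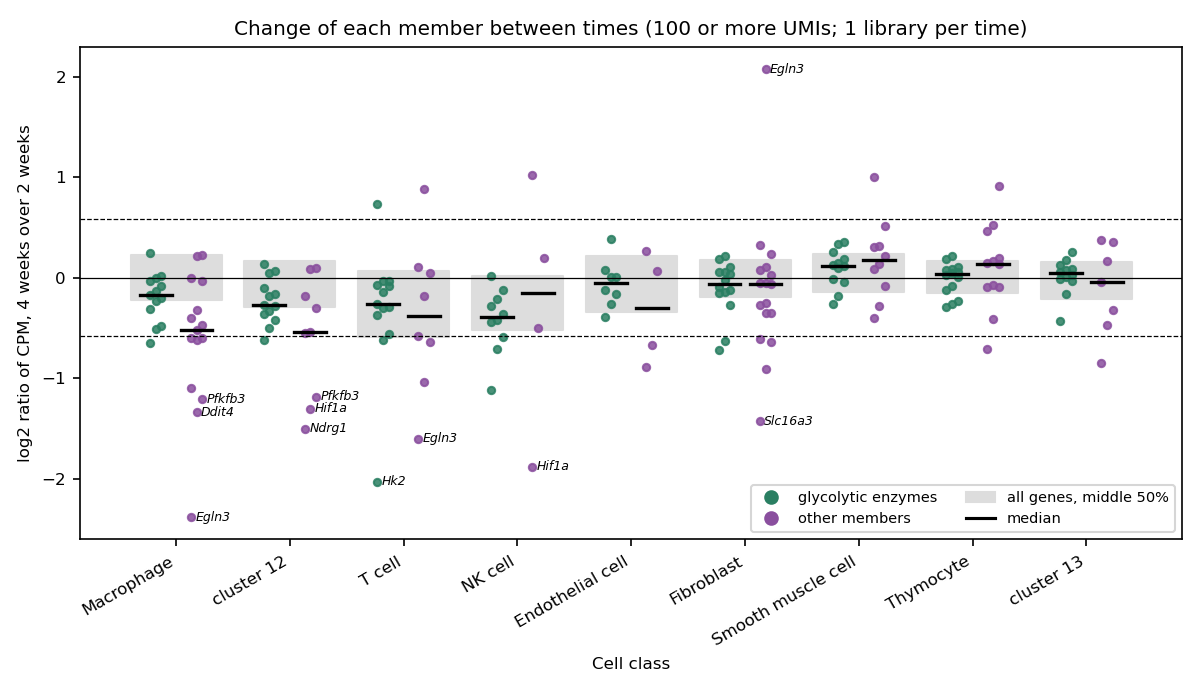
Log2 of 4 week CPM divided by 2 week CPM for each gene with at least 100 UMIs in the class (green, enzymes; purple, other members; black bars, medians; grey, middle 50% of all genes; dashed lines, 1.5-fold). The purple medians lie below the grey band in macrophage-like cells (-0.52) and cluster 12 (-0.54), and both groups lie inside it in fibroblast-like cells.

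Hif1a itself was the member most often lower, though it is regulated mainly through its protein. It was tested in all 9 classes with a ratio, lower in 6 of them and below a ratio of 0 in 8. Outside the macrophage-like cells it was at 241 and 65.3 CPM in NK cell-like cells (-1.88, -2.18 to -1.59), 327 and 159.7 CPM in T cell-like cells (-1.03), 277 and 150 CPM in endothelial-like cells (-0.89) and 147 and 78.3 CPM in fibroblast-like cells (-0.91). Smooth muscle-like cells stood at 100.4 and 106 CPM. Macrophage-like and T cell-like cells were the 2 highest classes at both times and their separate intervals overlapped, at 2 weeks only slightly.

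In fibroblast-like cells the enzymes hardly differed between times. Their sum was 1681 and 1666 CPM, and of 14 tested 2 were lower and 0 higher. Of the 17 other members 4 were lower and 1 higher, where 7.42% of all 11706 genes were lower and 3.01% higher. Both medians were -0.06, against 0.01 for all genes. The 2 lower enzymes were Hk2, at 90.4 and 58.4 CPM (-0.63), and Pfkl, at 9.15 and 5.54 CPM (-0.72). The 4 lower other members were Slc16a3 (7.36 and 2.73 CPM, -1.43), Hif1a, Pfkfb3 (13.7 and 8.79 CPM, -0.64) and Slc2a1 (9.46 and 6.21 CPM, -0.61). The level of Slc16a3 there was far under the 473 CPM of neutrophil-like cells at 2 weeks, and the part of free RNA in it was not tested. Immediate early genes were at 15266 and 11570 CPM with 6 of 12 lower, and their part in these ratios was not tested.

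The Hif1a difference in fibroblast-like cells was much smaller within clusters than over the class. It was -0.23, -0.28, -0.31, -0.18 and -0.27 in clusters 0, 2, 5, 9 and 17. Cluster 5, led by Cthrc1 and Lrrc15, genes of matrix-producing fibroblasts after injury, had the highest level, 185 and 149 CPM, and held 547 of 1157 cells at 2 weeks and 117 of 3215 at 4 weeks. Adm differed more within clusters, at 89.7 and 28.2 CPM in cluster 0 (-1.67, -1.87 to -1.46), 210.4 and 116 CPM in cluster 2 (-0.86) and 55.9 and 28.5 CPM in cluster 5 (-0.97). Over the whole class Adm was at 82.9 and 69.7 CPM, within 1.5-fold. Cluster 2, the highest at 2 weeks, held 174 cells at 2 weeks and 1050 at 4 weeks.

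Egln3 was the only member higher in fibroblast-like cells, and 1 small cluster carried it. It was at 0.662 CPM (17 UMIs) at 2 weeks and 2.78 CPM (112 UMIs) at 4 weeks, a ratio of 2.07 (1.33 to 2.90). Cluster 17, led by the cartilage and tendon genes Comp, Fmod and Frzb, gave 4 of the UMIs at 2 weeks and 105 at 4 weeks (2.06 and 57.2 CPM). These 105 came from 16 of 145 cells, and 1 cell gave 38.1% of them; without it the level was 35.7 CPM. In the other fibroblast-like clusters Egln3 was at 0.548 and 0.182 CPM. In smooth muscle-like cells it was at 6.94 CPM (4.35 to 10.5) and 41.7 CPM (29.5 to 57.2), from 20 of 75 cells at 4 weeks, with too few UMIs for a ratio under the rule used here. The ranges at the 2 times do not overlap in either of these stromal groups.

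Smooth muscle-like cells (208 and 75 cells) had few members past 1.5-fold. Of 12 enzymes 0 passed 1.5-fold, with a median of 0.12, and of 10 other members 1 was higher and 0 lower, with a median of 0.18, against 0.04 for all genes. Of all genes 2.9% were lower and 3.55% higher. The member higher was Bnip3, at 29.7 CPM and 59.2 CPM (1.00, 0.49 to 1.496). Ldha stood at 185 and 233 CPM and Pkm at 342 and 409 CPM. Among cells of the wall, smooth muscle-like cells had more summed enzyme UMIs (2574 and 2854 CPM) than pericyte-like (2022 and 1716 CPM), endothelial-like (1994 and 1902 CPM) and fibroblast-like cells. The pericyte-like name is uncertain at 4 weeks, as given above.

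Endothelial-like cells were few (64 and 49). Of 8 enzymes 0 passed 1.5-fold, and of 4 other members 2 were lower, Hif1a and Mif (123 and 77.2 CPM, -0.67), where 13.7% of all genes were lower and 7.63% higher. A single cell gave 22.4% of the Mif UMIs at 2 weeks. Their summed other members, 1234 and 1074 CPM, were led by Ndrg1.

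In T cell-like cells (249 and 996 cells) the members moved about as far as all genes did under the reported settings. Some other settings, given further on, put the enzyme median above that of all genes. The medians were -0.26 for the enzymes, -0.38 for the other members and -0.26 for all 6780 genes. Of 13 enzymes 2 were lower and 1 higher, and of 8 other members 3 were lower and 1 higher, where 25.1% of all genes were lower and 5.99% higher. Hk2 was at 34.2 and 8.37 CPM (-2.03, -2.62 to -1.44) and Pfkp, the platelet-type phosphofructokinase, at 93.7 and 61.0 CPM (-0.62), while Pfkl was at 12.6 and 21.01 CPM (0.73, from 17 UMIs at 2 weeks). Egln3 was at 29.0 and 9.55 CPM (-1.60), Bnip3l at 203 and 130.3 CPM (-0.64) and P4ha1 at 20.8 and 38.5 CPM (0.89). Different clusters held most of the class: cluster 6 had 33 cells at 2 weeks and 605 at 4 weeks, and cluster 20 had 126 and 57. Within clusters 6, 10 and 20 the enzyme medians were -0.13, 0.13 and -0.11. Hif1a stood at 166 and 59.4 CPM in cluster 6 (-1.48), 566 and 371 CPM in cluster 10, led by Il17a and Foxp3 (-0.61), and 133 and 145 CPM in cluster 20 (0.12). Ribosomal protein genes took 26.6% and 39.5% of the UMIs, and without them and the mitochondrial and haemoglobin genes the enzyme median was 0.039 and Bnip3l stood at -0.34, within 1.5-fold. Immediate early genes were at 6586 and 3445 CPM with 8 of 11 lower, and their part was not tested.

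In NK cell-like cells (150 and 264 cells) 3 of 10 enzymes were lower and 0 higher, where 20.1% of all genes were lower and 3.46% higher. These were Hk1 (70.1 and 32.2 CPM, -1.12), Gapdh (1011 and 616 CPM, -0.71) and Pkm (251 and 166 CPM, -0.59). The enzyme median was -0.39 and that of all genes -0.25. Of 4 other members Hif1a was lower and Pdk1 was higher, at 19.3 and 39.1 CPM (1.02, 0.35 to 1.73). Proliferation genes moved with them: 4 of 4 tested were lower, with a median of -4.87, and 26.0% and 10.6% of the cells were cycling. Their part in the lower enzymes was not tested. T cell markers summed to 3685 and 2557 CPM in this class, against 5187 and 3750 CPM in T cell-like cells. The class may therefore hold T cells as well, and its ratios are not those of NK cells alone. When the 2 libraries were clustered apart, 151 and 50 cells carried the NK cell-like name. Ribosomal protein genes took 27.9% of the UMIs at 2 weeks and 39.5% at 4 weeks. With ribosomal, mitochondrial and haemoglobin genes left out of the total, the enzyme median was -0.12, and Gapdh (-0.44) and Pkm (-0.32) no longer passed 1.5-fold.

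Thymocyte-like cells differed little between times. Of 14 enzymes 0 passed 1.5-fold, and of 12 other members Ankrd37 was higher (7.79 and 14.7 CPM, 0.91) and Ndrg1 lower (31.1 and 19.1 CPM, -0.71), where 2.74% of all genes were lower and 2.95% higher. Cluster 13 had 0 of 12 enzymes past 1.5-fold and 1 of 7 other members lower, again Ndrg1 (76.9 and 42.8 CPM, -0.85), with 4.85% and 1.73% of all genes lower and higher. The enzyme level was higher in the clusters made mostly of cycling cells. At 2 weeks it was 1828 CPM in cluster 1 (12.8% cycling), 3628 CPM in cluster 7 (all cells cycling) and 3942 CPM in cluster 13 (84.4% cycling), and the median depth went from 3413 to 15135 and 18726 UMIs per cell. Depth and cycling cannot be told apart here. B cell lineage clusters showed the same pair of features at 4 weeks: B cell-like cells had 1584 CPM of enzymes with 4.0% cycling, and cluster 16, led by Rgs13, had 4538 CPM (271 cells) with 81.9% cycling. Cluster 16 had 4 cells at 2 weeks, so no level is given for that time.

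Genes of the same pathways outside the 32 were followed through fixed lists. Of 35 other genes of the HIF pathway and its targets, 30 were tested in fibroblast-like cells and 7 were lower, with 0 higher and a median of -0.12, beside 7.42% of all genes lower. They included Nfil3, a transcription factor (74.4 and 23.9 CPM, -1.64), and Angptl4, an inhibitor of lipoprotein lipase (37.3 and 15.8 CPM, -1.24). In macrophage-like cells 5 of 24 were lower and 0 higher, beside 7.1% of all genes lower, among them Nfil3 (137 and 63.1 CPM, -1.12) and Arnt, the partner of HIF alpha (51.7 and 29.9 CPM, -0.79). In T cell-like cells 8 of 18 were lower and 0 higher, beside 25.1% of all genes lower, with Mxi1 at 56.5 and 8.52 CPM (-2.73). In smooth muscle-like cells 0 of 17 were lower and 1 was higher, Pdk3 (21.2 and 37.3 CPM, 0.82), beside 2.9% and 3.55% of all genes. In thymocyte-like cells 0 of 20 passed 1.5-fold, beside 2.74% of all genes lower and 2.95% higher. Of 23 other glycolysis and lactate genes, 13 were tested in fibroblast-like cells and 0 passed, beside 7.42% of all genes lower and 3.01% higher. In macrophage-like cells 11 were tested, and Eno3 (1.12) and Ldhb (0.69) were higher and Slc16a1 (-1.06) was lower. Of all genes there 5.12% were higher and 7.1% lower.

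Several members have near-identical copies or processed pseudogenes in the mouse genome, Gapdh, Eno1, Pgam1, Aldoa, Ldha and Mif among them. How the counting treated reads shared with such copies is not given in the sources used here, so their levels carry that uncertainty.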

How the data were processed

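The authors deposited, per sample, a matrix of UMI counts per gene and barcode; Cell Ranger 4.0.0 stands in the file header, and the submitters' processing notes name the build mm10. Other steps are not given in the sources used here. Barcodes with under 300 genes, under 500 UMIs or over 10% mitochondrial UMIs were left out, as were the highest Scrublet scores, at 0.8% per 1000 barcodes (275 and 587 barcodes). Cells of both libraries were clustered together with scanpy 1.11.5 (2000 variable genes, 30 components, 15 neighbours, Leiden resolution 1) and named from 27 marker lists. A name needed at least 3 markers and 50% of its list. UMIs were summed per class and library. Depth was 71577596 and 72868652 kept UMIs. Ratios carry exact conditional binomial intervals, sums exact Poisson and shares exact Clopper-Pearson intervals, at 95%. With 1 library per time no count model was fitted. The ratio script was tested on simulated data. All 32 genes are accounted for; per class the rule named up to 4 members with the highest and up to 4 with the lowest ratio past 1.5-fold with at least 100 UMIs, the highest class for levels, and up to 4 genes of other lists, and further members were named after their values were seen. The members and lists were chosen with earlier results of these data known. Promoter sequences are from RefSeq (GRCm38.p6), and gene positions from GENCODE M21, which matched 27645 of 27998 gene identifiers. Alternatives covered doublets, filters, clustering, scaling, weighting and thresholds; those chosen after seeing the data followed cluster 8 through other clusterings and set 4 week levels at 2 week cluster shares.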

Additional observations from a re-analysis of the deposited data

Results flagged for a closer look

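For 3 members the ratio of 4 weeks to 2 weeks passed 1.5-fold in opposite directions in different cell classes. Pfkl was higher in T cell-like cells (0.73) and lower in fibroblast-like cells (-0.72) and cluster 12 (-0.62). Pdk1 was higher in NK cell-like cells (1.02) and lower in macrophage-like cells (-0.62). Egln3 was higher in fibroblast-like cells (2.07) and lower in macrophage-like cells (-2.38) and T cell-like cells (-1.60). Each time is 1 library, so the difference between classes was not tested for any of the 3 genes.

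The members were also counted in barcodes that were left out for a mitochondrial share above 10% and that enter no comparison above. At 2 weeks 383 such barcodes (median 1938 UMIs) held 1852 CPM of glycolytic enzymes and 752 CPM of the other members. At 4 weeks 483 such barcodes (median 1374 UMIs) held 1557 and 635 CPM.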

How the results depend on the processing

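No paired analysis was possible because each time is 1 library. For the same reason no library could be left out. Counts below are members past 1.5-fold, whose reported values were 7 in fibroblast-like, 8 in macrophage-like, 5 in NK cell-like, 7 in T cell-like and 2 in thymocyte-like cells, 4 in cluster 12 and 16 in cluster 8. The share of all genes past the same cut was not computed under these settings. A count below therefore does not show whether members moved more than other genes. Medians are log2 ratios. Without doublet removal the macrophage-like medians were 0.17 (enzymes) and 0.10 (other members; all genes -0.03) with 4 members past. The NK cell-like median of other members was 0.20 (all genes -0.24), and the T cell-like and thymocyte-like counts were 4 and 1. With a mitochondrial limit of 5% the T cell-like enzyme median was 0.0052 (all genes -0.15) with 3 past, and 1 thymocyte-like member passed. At Leiden resolution 0.5 the T cell-like enzyme median was 0.12 (all genes 0.03) with 2 past, and 1 thymocyte-like member passed. At resolution 2 the T cell-like enzyme median was 0.10 (all genes -0.15) with 2 past. The NK cell-like median of other members was 0.18 (all genes -0.26) there, and 1 thymocyte-like member passed. When the 2 libraries were clustered apart the macrophage-like medians were -1.50 and -1.91 (all genes -0.02) with 24 past. The enzyme median was 0.034 (all genes 0.03) with 3 past in fibroblast-like cells and -0.016 (all genes -0.01) with 3 past in NK cell-like cells. In thymocyte-like cells it was 0.36 (all genes -0.17) with 8 past, and Ndrg1 turned to 1.22. With the members left out of clustering 1 thymocyte-like member passed.

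Without ribosomal, mitochondrial and haemoglobin genes the macrophage-like count was 5 and the NK cell-like medians were -0.12 and 0.12 (all genes 0.02) with 3 past. The T cell-like enzyme median was 0.039 (all genes 0.036), and the neutrophil-like sums were 6551 and 5551 CPM (enzymes) and 2560 CPM (other members, 2 weeks). With ratios centred on all genes the NK cell-like median of other members was 0.10 with 3 past, and the T cell-like enzyme median was 0.0032. With the mean of each cell's CPM 4 fibroblast-like members passed, cluster 12 had a median of other members of -0.62 with 8 past, the cluster 8 enzyme median was -0.59, and the neutrophil-like sums were 5923 and 5692 CPM (enzymes) and 2035 CPM (other members, 4 weeks). With clusters weighted equally the macrophage-like medians were -0.45 and -0.82 (all genes 0.02) with 14 past. The enzyme median was 0.068 (all genes -0.0012) with 2 past in fibroblast-like cells and -0.054 (all genes 0.0013) in T cell-like cells, and 4 thymocyte-like members passed. Without cycling cells 4 fibroblast-like and 1 thymocyte-like members passed, and the NK cell-like median of other members was -0.58 (all genes -0.20) with 2 past. The cluster 12 medians were then -0.35 and -0.70 (all genes -0.04) with 7 past, and the cluster 8 enzyme median was -0.60 (all genes 0.04).

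With at least 20 UMIs the NK cell-like and T cell-like medians of other members were -0.43 and -0.64 (all genes -0.21 and -0.26). At that limit 10 NK cell-like, 13 T cell-like, 5 thymocyte-like and 8 cluster 12 members passed. With at least 1000 UMIs the T cell-like and cluster 12 medians of other members were -0.64 and -0.74 (all genes -0.19 and 0.008). The counts were 2 (fibroblast-like), 5 (macrophage-like), 1 (NK cell-like), 2 (T cell-like), 0 (thymocyte-like), 1 (cluster 12) and 8 (cluster 8). Past 2-fold the counts were 2, 4, 3, 3 and 0 in fibroblast-like, macrophage-like, NK cell-like, T cell-like and thymocyte-like cells and 7 in cluster 8. At the 2 week cluster shares the ratio of the summed enzymes was -0.10 and that of the other members -0.23. For 30 pairs of a named member and a class, 214 of 250 values stayed on the same side of 1.5-fold in the same direction, 35 fell within it and 1 reversed. The cause was not tested, apart from thresholds that leave fewer members. Some settings gave no value: NK cell-like cells at resolution 0.5 and with members left out of clustering, numbered clusters under other clusterings, and cluster 8 at resolutions 0.5 and 2 and with separate libraries. Depth limits Aldoc, which reached 100 UMIs in no class with a ratio.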

Other observations

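Pathways that share metabolites with glycolysis were not lower at 4 weeks in macrophage-like cells. The 7 genes of the pentose phosphate pathway, which makes NADPH and ribose from glucose phosphate, summed to 843 CPM (828 to 858) at 2 weeks and 1163 CPM (1123 to 1204) at 4 weeks. Taldo1, the transaldolase, was at 231 and 383 CPM (0.73) and was the 1 of 7 past 1.5-fold. Of 19 genes of the tricarboxylic acid cycle and pyruvate oxidation 0 passed in either direction, with a sum of 1158 and 1307 CPM. Of all genes in the class 7.1% were lower and 5.12% higher, so few of 7 or 19 genes would pass at that share. These values cover the whole macrophage-like class, whose make-up differed between times. Cluster 8 gave 7.52% of all kept UMIs at 2 weeks and 1.89% at 4 weeks, and the class gave 20.4% and 3.72%. Neither pathway was summed within clusters 4 and 8, so the part of this mixture was not tested. In fibroblast-like cells 0 of 7 and 0 of 19 passed, where 7.42% of all genes were lower and 3.01% higher. In cluster 12 G6pdx, the entry enzyme of the pentose phosphate pathway, was lower (57.0 and 32.5 CPM, -0.81).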
